A study of Rattus norvegicus with 6 samples.

Results

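The miR-126a arms are the mature miRNAs rno-miR-126a-3p and rno-miR-126a-5p, which are cut from the same hairpin. They were taken by name, and make up 2 of the 734 mature miRNAs in the small RNA counts of rat sertoli cells, the somatic cells that nourish the germ cells of the seminiferous tubule. They were chosen by their levels, their arm ratio and their difference after 4-NP in these same counts, so these values are given here as a description, without a test. Small RNA was sequenced from 3 control samples, cultured without 4-NP, and from 3 samples treated with 0.5 mM 4-NP (4-nonylphenol, an alkylphenol with estrogen-like action), all described by the series as profiles of 24 h. The cells were primary sertoli cells at passage 2, prepared by enzyme digestion from testes of Sprague-Dawley rats aged 5 to 10 days and grown in medium with fetal bovine serum, so a culture can hold other testis cells. The labels do not say whether the 3 samples of a group were separate cultures, and spreads between them may be technical.

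miRNAs are short RNAs that guide Argonaute proteins to partly complementary messenger RNAs, mainly through the seed at bases 2 to 8. miR-126 is known as the hallmark miRNA of endothelial cells, where it is produced from an intron of Egfl7, a gene for a secreted factor of blood vessels. Its 3p arm is known to restrain Spred1 and Pik3r2, which dampen signalling by vascular growth factors, and its 5p arm is known to target Dlk1, a ligand-like inhibitor of Notch signalling.

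The mature sequences are shown because the arms have different seeds and because another miRNA is read from the opposite strand of the same place. They come from RefSeq on the GRCr8 build, the capitals mark the seed, and the coordinates belong to GRCr8 and not to the deposited counts, whose build is not given in the sources used here.
rno-miR-126a-5p: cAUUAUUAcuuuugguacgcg
rno-miR-126a-3p: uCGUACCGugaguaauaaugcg
rno-miR-126b: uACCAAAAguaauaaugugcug
The 5p arm lies at chr3:29813182-29813202 and the 3p arm at chr3:29813219-29813240, both on the plus strand, with 16 bases between them and inside the span of Egfl7, which lies on the same strand. RefSeq gives the gene of these arms the symbol Mir126b, with rno-mir-126a as a synonym. rno-miR-126b lies at chr3:29813177-29813198 on the minus strand. Its 17 bases of overlap with the 5p arm are complementary at all 17. None of the 693 mature miRNAs in the RefSeq table shared the seed of either arm (0 for the 3p arm and 0 for the 5p arm).

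The libraries were alike in depth. Per sample, 20023200 to 23426742 reads were counted on mature miRNAs, and miR-21-5p took 62.0 to 63.9% of them. Levels are given as CPM, reads per 1000000 mature miRNA reads of the sample. A count of 0 allows up to 3 reads, or 0.128 to 0.150 CPM, and such limits cover counting error only. The sertoli cell miRNAs miR-202-5p (1026 ± 200 CPM in the 3 controls, 746 ± 46.7 CPM in the 3 treated samples; SD) and miR-140-5p (631 ± 67.3 and 536 ± 47.1 CPM) were present in every sample. The other arm of miR-202, miR-202-3p, was scarce and uneven. It was read 9, 67 and 59 times in control samples 1, 2 and 3. After 4-NP it was read 89, 123 and 0 times, so it was not detected in 4-NP sample 3. The other arm of miR-140, miR-140-3p, was read 342 to 463 times per sample.

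miR-126a-3p, the arm with more reads, was among the most abundant miRNAs of the control cells. It had 174746, 153737 and 136553 reads in control samples 1, 2 and 3, which is 7459, 6656 and 6126 CPM. After 4-NP it had 69664, 64635 and 81549 reads, which is 3148, 3228 and 3724 CPM. The lowest control was 1.64 times the highest 4-NP sample, so the groups did not overlap. The mean was 6747 ± 671 CPM in controls and 3367 ± 312 CPM in treated cells (SD, n = 3 each). On the log2 CPM scale the difference, 4-NP minus control, was -1.002 (standard error 0.11), which is a level 50.1% lower. The highest and lowest sample within a group differed 1.22-fold in controls and 1.18-fold after 4-NP. In a culture of several cell types, fewer cells that make miR-126a and less of it per cell cannot be told apart.

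miR-126a-5p was a minor product that was lower to a similar extent. It had 3645, 3747 and 4433 reads in control samples 1, 2 and 3 (156, 162 and 199 CPM) and 1902, 1374 and 1769 reads after 4-NP (85.9, 68.6 and 80.8 CPM). All 3 controls again lay above all 3 treated samples, by 1.81-fold between the nearest ones. The means were 172 ± 23.3 and 78.5 ± 8.90 CPM (SD, n = 3 each), a log2 difference of -1.13 (standard error 0.15), or 54.4% lower. The control sample with the highest 5p level, control 3, had the lowest 3p level of its group.

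**Figure D1:**
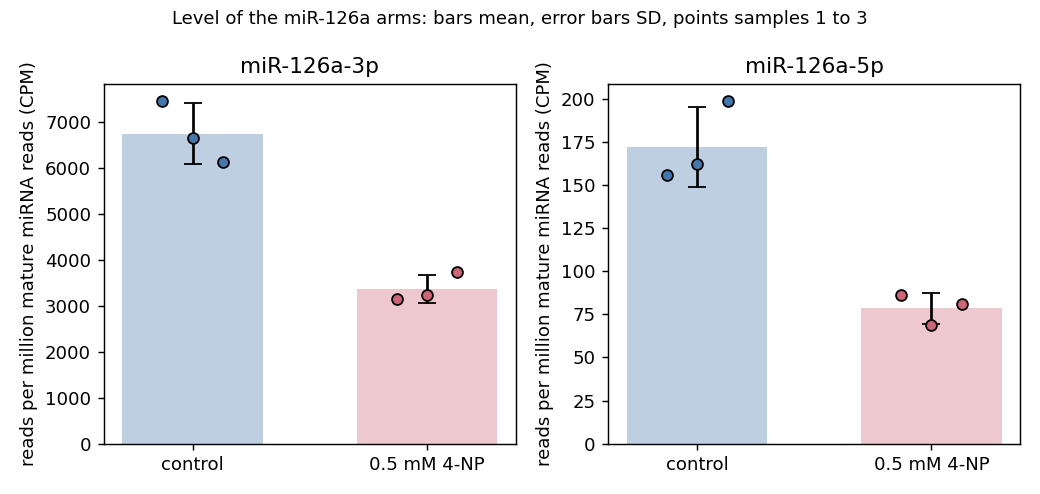
Level of miR-126a-3p (left) and miR-126a-5p (right) in CPM, with the mean as a bar, the SD as an error bar and samples 1 to 3 as points from left to right. Every control point lies above every 4-NP point in both panels, with means of 6747 against 3367 CPM for the 3p arm and 172 against 78.5 CPM for the 5p arm.

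Both arms lay without overlap below the controls, as did 22.6% of the 549 miRNAs with enough reads to be tested (42.4% when both directions are counted). Both also passed an adjusted p under 0.05 as lower in edgeR's quasi-likelihood test, as did 12.8% of the 549 (7.47% passed as higher and 20.2% in either direction). As the arms were chosen with this difference known, nothing is read from these 2 calls. By the study's own rule, a fold change under 0.5 with an unadjusted p under 0.05, 9.84% were lower and, at a fold change over 2, 5.83% were higher. The fold change of miR-126a-3p sat at that edge. The log2 difference in CPM was between -1.08 and -0.93 for miR-126a-3p over 13 other settings (below -1 in 7) and between -1.20 and -1.02 for miR-126a-5p. The fitted log2 fold change, from edgeR with its alternatives, DESeq2 and limma, ran from -1.12 to -0.90 for miR-126a-3p and from -1.26 to -0.98 for miR-126a-5p, so it crossed -1 for both arms. For miR-126a-5p this was so without 4-NP replicate 2.

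**Figure D2:**
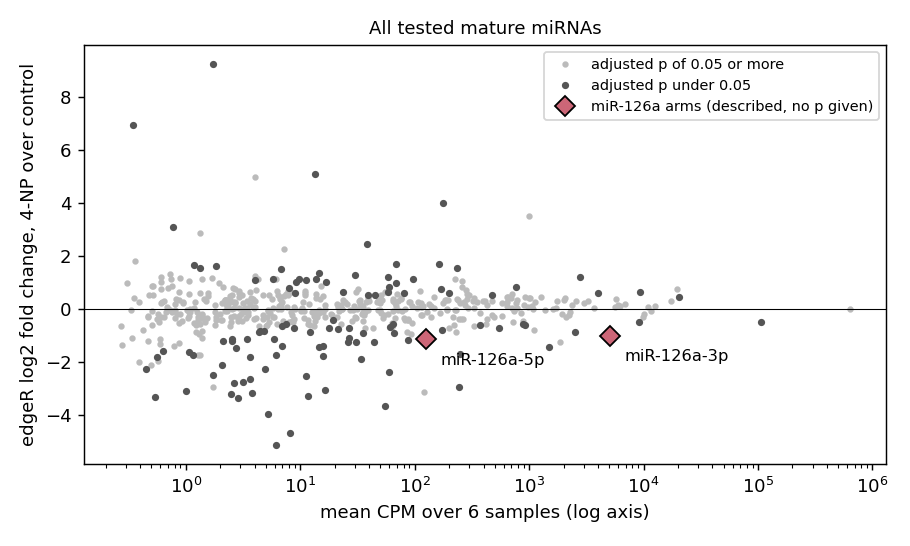
The log2 fold change of each of the 549 tested miRNAs (4-NP over control, edgeR) against its mean CPM on a log axis, with dark points for an adjusted p under 0.05 and diamonds for the miR-126a arms. Both arms lie close to -1, and the 3p arm stands far to the right among the 45 miRNAs with a mean of at least 1000 CPM.

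Measured by reads rather than by fold, the difference in miR-126a-3p was large. Its mean was lower by 3380.2 CPM after 4-NP, the second largest loss of all mature miRNAs after that of miR-143-3p, a miRNA of smooth muscle and fibroblasts. Of the 45 tested miRNAs with a mean of at least 1000 CPM, it had the third largest fall in mean log2(CPM + 1). The larger differences were those of let-7a-5p, whose 4-NP samples were very uneven (1090 ± 1636 CPM, SD, n = 3), and of miR-322-5p, which went from 2195 ± 121 to 821 ± 45.3 CPM (SD, n = 3 each). Over all 549 miRNAs the median edgeR log2 fold change was -0.02.

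The rank of both arms moved with the level. miR-126a-3p ranked 12th, 14th and 13th of the 734 mature miRNAs in control samples 1, 2 and 3, and 23rd, 22nd and 22nd after 4-NP. miR-126a-5p ranked between 107 and 116 in controls and between 147 and 156 after 4-NP. The miRNAs nearest to the 3p arm in mean level over the 6 samples were miR-181a-5p, miR-16-5p and miR-3588 above it and miR-30d-5p, let-7c-5p and let-7g-5p below it. In each of the 3 controls miR-126a-3p had more reads than any of these 6, and in each of the 3 treated samples it had fewer reads than any of them. The 6 were picked by a mean over both groups, so this crossing restates the difference between the groups and is no separate support.

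Comparisons of reads with these 6 miRNAs are ratios within a library, which no scaling can alter. They restate the same difference, together with any difference in the other miRNA. For each read of miR-30d-5p there were 1.88 to 2.43 reads of miR-126a-3p in controls and 0.622 to 0.834 after 4-NP. For miR-16-5p, a miRNA that restrains the cell cycle and is found in most cells, the ratio was 1.20 to 1.46 in controls and 0.491 to 0.552 after 4-NP. Against let-7g-5p, of the let-7 family, it was 2.16 to 2.55 in controls and 0.910 to 0.944 after 4-NP. In mean log2 CPM miR-30d-5p, miR-16-5p and let-7g-5p were themselves higher after 4-NP, by 0.62, 0.39 and 0.33. The differences of let-7c-5p, miR-3588 and miR-181a-5p were smaller, at 0.05, 0.08 and 0.17. Against these the ratio was 1.78 to 1.90, 1.04 to 1.73 and 1.06 to 1.52 in controls. After 4-NP it was 0.844 to 0.963, 0.438 to 0.724 and 0.485 to 0.636. In controls the range of mean ± SD of miR-126a-3p overlapped those of miR-181a-5p (5618 ± 676 CPM) and miR-3588 (5526 ± 1076 CPM) but not that of miR-16-5p (4935 ± 304 CPM; SD, n = 3 each). After 4-NP it overlapped that of let-7g-5p (3612 ± 298 CPM) but not those of let-7c-5p (3786 ± 72.2 CPM) and miR-30d-5p (4850 ± 332 CPM).

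The neighbours of miR-126a-5p in mean level moved less than it did, with 1 exception. miR-532-5p had 123 ± 4.47 CPM in controls and 142 ± 10.5 CPM after 4-NP, and miR-196a-5p, from the HOX clusters, had 114 ± 20.8 and 123 ± 10.3 CPM (SD, n = 3 each). The exception was miR-434-3p, with 218 ± 122 CPM in controls and 25.1 ± 24.7 CPM after 4-NP. Its samples ran from 1.94 to 329 CPM, whereas those of miR-126a-5p ran from 68.6 to 199 CPM.

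The ratio of the arms showed no separation between the groups. There were 47.9, 41.0 and 30.8 reads of the 3p arm for each read of the 5p arm in control samples 1, 2 and 3, and 36.6, 47.0 and 46.1 after 4-NP. The values of the groups interleave, with means of 39.9 ± 8.62 and 43.3 ± 5.76 (SD, n = 3 each). The log2 difference, 4-NP minus control, was 0.13 (standard error 0.22), and it was -0.05 without control replicate 3. Both arms were therefore lower by amounts that these samples do not separate.

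As a share, the 5p arm made up 2.04, 2.38 and 3.14% of the reads on both arms in controls and 2.66, 2.08 and 2.12% after 4-NP. With 66009 to 178391 reads on the arms per sample, counting error was small. The 95% Wilson interval was 1.98 to 2.11% in control 1 and 3.05 to 3.24% in control 3. The intervals take each read as independent, although the libraries were amplified. Beyond counting error taken in this way, the controls differed from each other. The limit on the comparison was the spread between samples and not the depth.

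**Figure D3:**
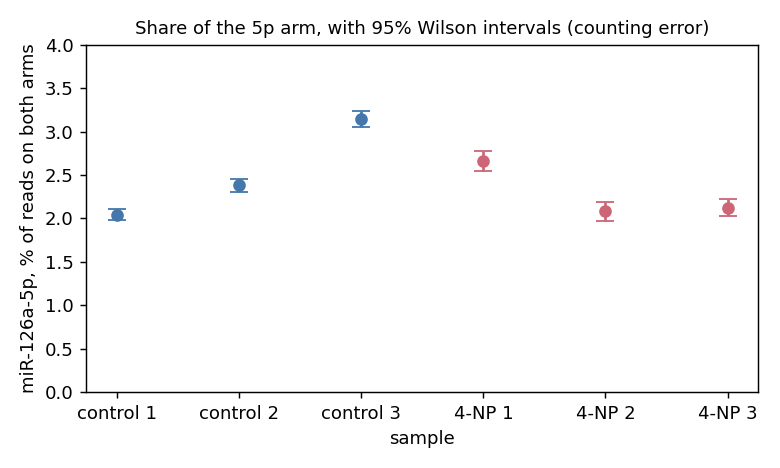
Share of miR-126a-5p in the reads on both arms, in percent, for each of the 6 samples, with 95% Wilson intervals that cover counting error only. The controls span 2.04 to 3.14% and the 4-NP samples, at 2.08 to 2.66%, fall inside that span.

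miR-126a was a pair with a strongly preferred 3p arm. Among known miRNAs, 52 had a listed 3p and 5p arm, each with a mean of at least 10 CPM and with reads in every sample. In 16 of these 52 the 3p arm had more reads, and only 5 pairs favoured their 3p arm more than miR-126a did, those of miR-143, miR-27b, miR-22, miR-27a and miR-29a. The arms of miR-126a differed 41.1-fold in the geometric mean over the 6 samples, and the median over all pairs, in either direction, was 11.6-fold. By the size of the difference in either direction, miR-126a was 15th of the 52 pairs. Of the 10 pairs in which both arms reached a mean of 100 CPM over the 6 samples, miR-126a had the most unequal arms. Its 5p arm reached that mean only through the controls (172 CPM, against 78.5 CPM after 4-NP), so nothing is read from this place. With at least 68.6 CPM, its minor arm was well above the detection limit in every sample.

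The ratio of miR-126a was then set beside those of the other pairs. The groups did not overlap in arm ratio for 18 of the 52 pairs (34.6%), and miR-126a was not one of them. The median size of the log2 change in arm ratio was 0.36, and 8 pairs changed less than miR-126a. Within the controls alone, the log2 arm ratio of miR-126a spanned 0.64, against a median of 0.46 over the pairs, and 17 pairs spanned more.

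**Figure D4:**
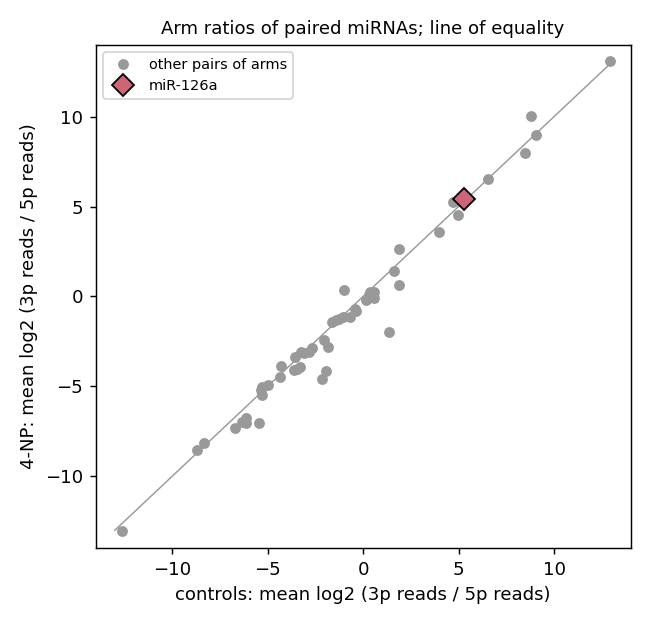
Mean log2 of 3p reads per 5p read in controls (horizontal) and after 4-NP (vertical) for the 52 pairs of arms, with the line of equality. The diamond of miR-126a lies beside the line, in the upper right with the pairs that favour the 3p arm.

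In first base, the arms of miR-126a differ as the sequences above show, with U at the start of the 3p arm and C at the start of the 5p arm. U is the base that Argonaute proteins are known to prefer at this position. Of the 45 pairs with a RefSeq sequence for both arms, the arm with more reads started with U in 23 (51.1%) and the arm with fewer reads in 10 (22.2%). The order of miR-126a, U on the richer arm and C on the poorer, was found in 9 of the 45 (20%). The 3p arm holds 10 G or C among its 22 bases and the 5p arm 8 among 21.

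miR-126b, the antisense product, was near or below the limit of detection. It had 0, 3 and 0 reads in the controls and 0 reads in each 4-NP sample, where up to 0.136, 0.150 and 0.137 CPM are allowed. The deposited table lists 177 precursor rows, and none of them names miR-126, so the hairpin itself could not be followed beside its arms.

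The miRNAs whose profile over the 6 samples lay nearest to that of miR-126a-3p were sought among 137 other known miRNAs with a mean of at least 100 CPM, by the distance between centred log2(CPM + 1) values. They were miR-199a-5p, miR-135b-5p, miR-126a-5p, miR-341 and miR-450b-5p, in that order, with distances of 0.48 to 0.59. miR-199a-5p, known from mesenchymal cells, had 3118, 3638 and 2964 CPM in controls and 1995, 1728 and 1686 CPM after 4-NP. The more abundant arm of its hairpin, miR-199a-3p (mean 11593 CPM over the 6 samples), had a log2 fold change of -0.08 (adjusted p = 0.635 in edgeR). The groups did not overlap in the arm ratio of miR-199a. The sister arm, miR-126a-5p, was the third nearest of 137, and in the other direction miR-126a-3p was the nearest to miR-126a-5p. The 5p arm reached the mean of 100 CPM only through the controls (172 CPM, against 78.5 CPM after 4-NP). Both arms were also chosen by these same values, so nothing is read from these places.

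After the sister arm, the miRNAs nearest to miR-126a-5p were miR-322-5p, miR-199a-5p, miR-214-3p and miR-135b-5p, with distances of 0.57 to 0.65. miR-322-5p, the rodent form of miR-424, had 2319, 2077 and 2188 CPM in controls and 826, 863 and 773 CPM after 4-NP. miR-214-3p, which shares a transcript with miR-199a, had 557, 711 and 768 CPM in controls and 382, 401 and 449 CPM after 4-NP. Each miRNA named here as nearest had a lower mean after 4-NP, so the likeness includes the difference between the groups.

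Other miRNAs studied in blood vessel growth did not move together. Of the 41 rows of that list, which covers 23 miRNA names, 39 were tested, and edgeR's quasi-likelihood test called 3 higher and 6 lower at an adjusted p under 0.05, or 23.1% against 20.2% of all 549. The median edgeR log2 fold change of the list was 0.01, against -0.02 over all tested miRNAs. The risers were miR-20a-5p of the miR-17 cluster (log2 fold change 0.52, standard error 0.12), miR-27a-5p (0.80, standard error 0.14) and miR-296-3p (1.50, standard error 0.25).

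Those that fell included both arms of miR-27b, at -0.50 (standard error 0.11) for miR-27b-3p and -1.77 (standard error 0.12) for miR-27b-5p, and miR-23b-5p from the same cluster at -2.81 (standard error 0.19). The others were miR-210-5p, from the hairpin of the hypoxia-responsive miR-210 (-0.90, standard error 0.18), miR-322-5p (-1.45, standard error 0.13) and its cluster partner miR-503-5p (-2.41, standard error 0.21). Of those called, miR-23b-5p, miR-210-5p and miR-296-3p were scarce, with means of 2.66, 4.38 and 6.75 CPM over the 6 samples. Their more abundant sister arms were not called. These were miR-23b-3p at -0.22 (standard error 0.10), miR-210-3p at -0.35 (standard error 0.43) and miR-296-5p at 0.36 (standard error 0.20). miR-221-3p and miR-222-3p, which restrain the growth of endothelial cells, had edgeR log2 fold changes of -0.03 (standard error 0.16) and 0.01 (standard error 0.13). The most abundant of the list, miR-24-3p, had 14682 ± 881 CPM in controls and 24302 ± 15607 CPM in treated cells (SD, n = 3 each), and passed no threshold. miR-27a-3p and miR-23a-3p had log2 fold changes of 0.28 and 0.31 (standard errors 0.09 and 0.10), with adjusted p values of 0.0728 and 0.0719 in edgeR.

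Lists of miRNAs of other cells that a testis culture can hold were counted in the same way, and their part in the levels of miR-126a was not tested. The list of smooth muscle and peritubular myoid cells summed to 121327 to 136847 CPM in controls and 88851 to 97114 CPM after 4-NP. Of its 8 tested rows, 4 fell in edgeR (50%, against 20.2% of all 549 called in either direction). By unadjusted p in edgeR 5 were lower, and by adjusted p 4 each in DESeq2 and limma, with 0 higher by any of these rules. Those that fell in edgeR were miR-143-3p (log2 fold change -0.50, standard error 0.10), miR-145-3p (-1.88, standard error 0.14), miR-214-3p (-0.74, standard error 0.17) and miR-214-5p (-1.76, standard error 0.34). miR-145-5p had -0.33 (standard error 0.14, adjusted p = 0.159 in edgeR). Also not called were miR-143-5p at -0.66 (standard error 0.21), miR-133a-3p at -0.29 (standard error 0.16) and miR-1-3p, of the other sign, at 0.30 (standard error 0.48).

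The germ cell and testis list summed to 662 to 798 CPM in controls and 239 to 273 CPM after 4-NP. Of its 14 tested rows, 7 fell and 4 rose in edgeR (78.6% in all, against 20.2% of all 549 called in either direction). Those that rose were both arms of miR-34b and miR-34c, which are known as targets of p53. Those that fell were miR-465-3p, miR-741-3p, miR-743a-5p, both arms of miR-871, miR-880-3p and miR-883-5p. The most abundant, miR-741-3p of the X-linked testis cluster, went from 434 ± 70.2 to 56.8 ± 10.5 CPM (SD, n = 3 each), and that of miR-449a-5p was -0.25 (standard error 0.14) on the log2 fold scale.

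The blood cell list summed to 38.2 to 322 CPM in controls and 351 to 1239 CPM after 4-NP, sums made up mostly of miR-451-5p and miR-155-5p in every sample but control 1. Both were uneven between samples. Of its 8 tested rows 1 rose in edgeR (12.5%, against 7.47% of all 549 called higher and 20.2% called in either direction). By unadjusted p in edgeR 2 were higher, and by adjusted p 2 in DESeq2 and 1 in limma, with 0 lower by any of these rules. The riser was the red cell miRNA miR-451-5p, with 20.5 ± 17.0 CPM in controls and 330 ± 285 CPM in treated cells (SD, n = 3 each), and this call was lost without control replicate 1 or 2 or 4-NP replicate 2 or 3. The white cell miRNAs differed in direction, and edgeR called none of those named here. miR-142-3p had 5.31 ± 0.931 CPM in controls and 3.42 ± 1.06 CPM after 4-NP, and miR-142-5p had 1.72 ± 0.228 and 1.36 ± 0.564 CPM. miR-155-3p had 5.32 ± 1.09 and 5.22 ± 0.801 CPM, miR-223-3p had 2.65 ± 0.664 and 5.91 ± 4.57 CPM, and miR-150-5p had 10.8 ± 0.860 and 19.6 ± 9.54 CPM (SD, n = 3 each). miR-155-5p had 2, 5954 and 5638 reads in controls and 10569, 1 and 12385 after 4-NP, an unevenness that neither miR-126a arm shared.

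Of the 4 tested sertoli cell rows, 0 rose and 0 fell by adjusted p in edgeR, DESeq2 and limma. In edgeR 20.2% of all 549 were called in either direction. By unadjusted p in edgeR 1 of the sertoli cell rows was lower. These rows summed to 1382 to 1897 CPM in controls and 1213 to 1404 CPM after 4-NP. The one with the lower unadjusted p, miR-202-5p, stood at -0.48 on the log2 scale in edgeR (standard error 0.16, adjusted p = 0.0858). Its sister arm miR-202-3p differed in sign, at 0.75, with a standard error of 1.24. The liver miRNA miR-122-5p had few reads in controls, at 1, 3 and 12, and was uneven after 4-NP, at 6, 434 and 31. miR-126a is itself the defining miRNA of endothelial cells, and no list here holds another that is confined to them. The cell type behind the reads of miR-126a was not tested.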

How the data were processed

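Small RNA of 18 to 30 nt was cut from a gel, ligated to adapters with molecular identifiers, amplified and sequenced by the authors, who deposited 1 table of read counts for 2363 small RNAs in 6 samples, without normalization. The submitters' processing notes name HISAT2 and DESeq2, and the paper names FastQC and edgeR. The miRNA database and build are not given in the sources used here. The 6 columns named for molecular identifiers were not used. The 4 rows that hold totals by genome region or repeat, 3.52 to 5.91% of counted reads, were left out. Treated columns were matched to treated samples by number.

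Library size was the sum over the 734 mature miRNAs (673 known, 61 predicted). The members and lists were chosen with earlier results of these data known. Differences of miR-126a are those of mean log2 CPM, with standard errors from the samples. All miRNAs passing filterByExpr (549) were fitted in R 4.3.3 with edgeR 4.0.16 (TMM, two-sided quasi-likelihood F test, no block, Benjamini-Hochberg adjustment, common dispersion 0.118), a procedure tested on simulated data. Standard errors of edgeR fold changes come from the F statistic. DESeq2 1.42.0 and limma 3.58.1 were alternatives, with other scalings, filters, a replicate block and the omission of each sample. Summaries were made in Python 3.11.15.

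Named miRNAs were the arms, the 3 above and below each in level, the 5 nearest in profile, those sharing a seed, miR-21-5p, and of each list the 4 most abundant and those called. Others were named after their values were seen. RefSeq sequences were matched for 606 of the 673 known names.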

Additional observations from a re-analysis of the deposited data

How the results depend on the processing

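The log2 difference of miR-126a-3p lay between -1.08 and -0.93 and that of miR-126a-5p between -1.20 and -1.02 with 4 other library sizes, edgeR's fold change with and without a replicate block, a pseudocount of 1 and the omission of each sample from the CPM means. In the other edgeR, DESeq2 and limma fits, the omission of a sample among them, the log2 fold change ran from -1.12 to -0.90 and from -1.26 to -0.98. The block on the arms was added after the data were seen. The log2 change in arm ratio lay between -0.05 and 0.27. With a replicate block, 26 miRNAs in place of 41 were higher, and 2 of the blood list in place of 1. Same-numbered samples did not deviate together (correlations of their deviations -0.16, -0.04 and -0.03 across 476 miRNAs). This cannot show whether the numbers pair the samples, which the labels do not say. DESeq2 called 5 of the vessel list higher in place of 3, 2 of the blood list in place of 1 and the liver miRNA (1 in place of 0). With at least 10 counts in every sample, 4 of the germ list were lower in place of 7, as fewer were tested. Omission of 1 sample moved the higher calls of the blood list to between 0 and 4 (4 without 4-NP replicate 1), those of the liver list to between 0 and 1 (1 without 4-NP replicate 1), and the lower calls of the sertoli list to between 0 and 1 (1 without control replicate 3). The cause was not tested. With 3 samples a group, the spread between samples and not the depth limited the arm comparison. For miR-126b the reads were too few to compare the groups.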
